A study of Rattus norvegicus and Mus musculus with 12 samples.

Results

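CXC chemokines, the small secreted proteins that call leukocytes into tissue, were followed in rat and mouse articular chondrocytes with and without IL-1β. Members were found by gene name from a list of 10 (Cxcl1, Cxcl2, Cxcl3, Cxcl5, Cxcl6, Cxcl9, Cxcl10, Cxcl12, Cxcl14 and Cxcl16), which gave 9 of the 19687 genes of the rat table and 9 of the 28603 genes of the mouse table. Rat Cxcl5 and mouse Cxcl6 were not analysed here, and rat Cxcl6 was set beside mouse Cxcl5 as its counterpart. The study compared how chondrocytes of the 2 species, a model of inflamed osteoarthritic cartilage in a dish, respond to the same cytokine. All cells were primary chondrocytes taken from articular cartilage of newborn animals 24 h old and used at passage 1, and RNA was sequenced from 12 libraries, 3 in each of 4 groups. RC were chondrocytes of Sprague–Dawley (SD) rats without IL-1β, and RM were SD rat chondrocytes given 20 ng/ml IL-1β for 24 h. MC were chondrocytes of C57BL/6 mice without IL-1β, and MM were C57BL/6 mouse chondrocytes given 20 ng/ml IL-1β for 24 h. In the strain labels only MC1 carries C57BL/6, while MC2 and MM1 carry C57BL/7, MC3 and MM2 carry C57BL/8 and MM3 carries C57BL/9, so strain is taken here from the methods of the paper.

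CXC chemokines carry a pair of cysteines parted by a single residue near the amino end and act on leukocytes through G protein-coupled receptors. Those with the ELR motif (glutamate, leucine, arginine) ahead of the cysteines draw neutrophils through Cxcr2, while Cxcl9 and Cxcl10 are interferon-induced ligands of Cxcr3 on T cells, Cxcl12 is the homeostatic ligand of Cxcr4, and Cxcl14 and Cxcl16 have roles of their own. In cartilage, IL-1β is known to induce ELR chemokines through the transcription factor NF-kB, and Cxcl12 with Cxcr4 is known from bone marrow niches and from growth plate and joint tissue.

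Reads assigned to genes came to 24897458, 23223930 and 21114361 in RC1 to RC3 and to 20169272, 25903459 and 23953789 in RM1 to RM3. In mouse they came to 17118481, 16841580 and 17957308 in MC1 to MC3 and to 20048322, 19560813 and 17482589 in MM1 to MM3. Levels are given as FPKM (fragments per kilobase of gene, scaled to the fragments of the library), as deposited, and compared between genes within a species only. For mouse Cxcl1, Cxcl2, Cxcl3 and Cxcl10 the gene length used equals the whole span of the gene, introns with it, which lowers their FPKM beside other mouse genes. Changes are log2 fold changes of the IL-1β group over its control from edgeR's quasi-likelihood test on the counts of all genes, and a gene is said to have risen or fallen where its Benjamini-Hochberg (BH) adjusted P was below 0.05. These P values measure the spread between the 3 cultures of a group, which the methods of the paper call independent samples, and an exact permutation test of 3 against 3 could not go below 0.1. The sources used here do not give whether each came from 1 animal or from pooled animals.

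The ELR group can be read from the coding sequence of the mouse genes. The stretch around the first cysteine codon is shown for 4 ELR members and for 2 without the motif, since this feature parts the members that led the response from Cxcl10 and Cxcl12. Each line holds 54 bases of mouse coding sequence from the GENCODE M21 transcripts, on the gene's own strand, and the capitals mark the 3 codons directly ahead of the first cysteine codon.
Cxcl1: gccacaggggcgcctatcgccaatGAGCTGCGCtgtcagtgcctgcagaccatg
Cxcl2: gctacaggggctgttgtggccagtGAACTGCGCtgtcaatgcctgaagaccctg
Cxcl3: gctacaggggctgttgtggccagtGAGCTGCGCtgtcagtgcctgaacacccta
Cxcl5: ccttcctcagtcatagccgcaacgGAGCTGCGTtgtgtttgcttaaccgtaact
Cxcl10: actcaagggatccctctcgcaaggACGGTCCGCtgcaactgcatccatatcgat
Cxcl12: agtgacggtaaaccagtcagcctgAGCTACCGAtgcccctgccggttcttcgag
The 3 capital codons encode ELR in Cxcl1, Cxcl2, Cxcl3 and Cxcl5 and not in Cxcl9, Cxcl10, Cxcl12, Cxcl14 or Cxcl16. The first cysteine codon is number 33 in Cxcl1, 36 in Cxcl2 and Cxcl3, and 53 in Cxcl5, whose coding sequence of 399 bases is longer than the 291 of Cxcl1 and the 303 of Cxcl2 and of Cxcl3. Mouse Cxcl2 and Cxcl3 were the closest pair, with 89.8% identical bases over their aligned coding sequences, gaps counted as differences. Cxcl1 shared 75.6% with Cxcl2 and 72.6% with Cxcl3, and Cxcl5 shared 49% with Cxcl1. Reads of a shared stretch cannot be told apart, and of the 2159 windows of 50 bases in Cxcl2 transcripts 126, or 5.84%, occurred in Cxcl3 as well, while Cxcl1 shared no such window with another gene.

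IL-1β raised the ELR chemokines in both species, and in mouse Cxcl5 and Cxcl1 came to be among the most abundant RNAs of the culture. Cxcl12 went opposite ways, up in rat and down in mouse, and Cxcl14 fell in mouse. In rat, 8 of the 9 members had enough counts to be tested, and 6 rose, 0 fell, and Cxcl10 and Cxcl14 did not pass, while of all 13303 rat genes tested 18.3% rose and 16.8% fell. In mouse, 8 of 9 were tested, and 6 rose and 2 fell, while of all 14774 mouse genes tested 37.4% rose and 37.7% fell. By the criteria for DEGs (unadjusted P below 0.05, log2 fold change of at least 0.85 either way, and 1 FPKM in at least 1 library) 6 rat members were up against 4.64% of rat genes up and 3.9% down, and 6 mouse members were up and 2 down against 12.6% and 13% of mouse genes. Of 8 members compared between species, the log2 fold change was higher in mouse for 3 and lower for 2, beside 31.4% and 32.3% of the 10913 genes tested in both. Rat Cxcl2, Cxcl3 and Cxcl6 and mouse Cxcl2 and Cxcl3 had enough counts only through the IL-1β libraries, so they had to differ, and the member counts are given as a description and not as support. Cxcl9 was not tested in either species for want of counts. In bulk RNA of a culture, fewer cells of a type and less RNA per cell cannot be told apart, and this holds for each value here.

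**Figure D1:**
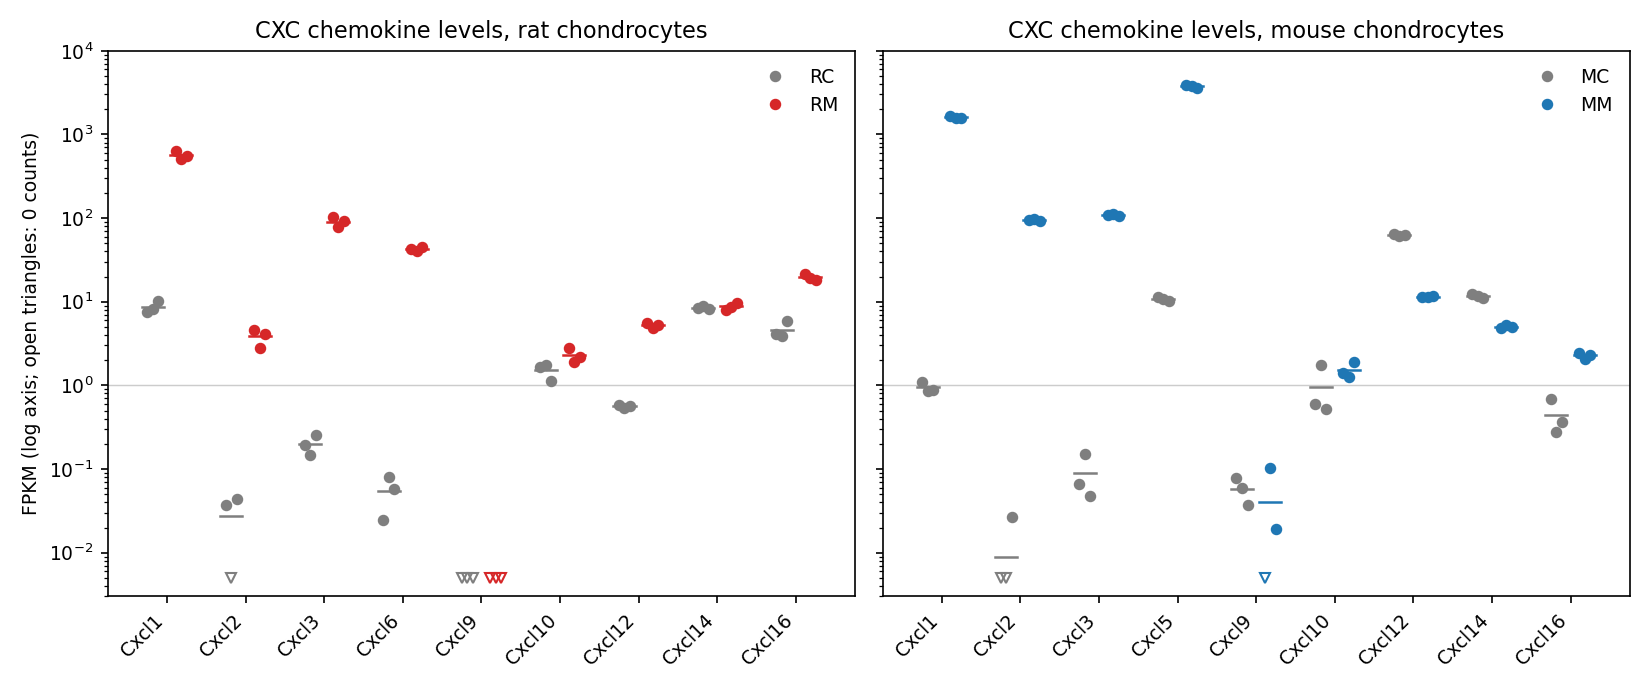
FPKM of each CXC chemokine in each library on a log axis, rat on the left and mouse on the right, with points for libraries, bars for group means, open triangles for libraries at 0 counts and a line at 1 FPKM. Mouse Cxcl5 stood between 3589 and 3868 FPKM in MM and between 10.25 and 11.35 in MC, and Cxcl12 stood between 60.56 and 63.65 in MC and between 11.43 and 11.6 in MM.

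Cxcl1, a ligand of Cxcr2 that recruits neutrophils, was the most abundant ELR chemokine of rat cultures in either condition. In rat (ENSRNOG00000002802) its FPKM was 7.5, 8.28 and 10.1 in RC1 to RC3 and 634.5, 504.3 and 549 in RM1 to RM3. Each RM library stood far above each RC library, and RM1 was the highest. This was a log2 fold change of 6.02 (SE 0.133, edgeR, BH-adjusted P = 4.34e-10), from 548 counts over the RC group to 36125 over RM, and by mean FPKM Cxcl1 ranked 108 among all rat genes in RM. In mouse (ENSMUSG00000029380, chr5:90891241-90893115 on the + strand of GRCm38) its FPKM was 1.09, 0.855 and 0.891 in MC1 to MC3 and 1654, 1588 and 1557 in MM1 to MM3. The mouse groups did not overlap, and MM1 was again a little above its fellows. Over the group 92 counts became 171482, a ratio of 2056 with an exact 95% counting interval of 1680 to 2550 (log2 fold change 11, edgeR, BH-adjusted P = 5.72e-84), and Cxcl1 ranked 15 by mean FPKM in MM. The mouse change exceeded the rat change by 4.98 on the log2 scale (SE 0.18, edgeR, BH-adjusted P = 3.62e-13).

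Cxcl2 and Cxcl3, further ligands of Cxcr2 and close copies of each other, were almost silent without IL-1β. Rat Cxcl2 (ENSRNOG00000002792) had 1, 0 and 1 counts in RC1 to RC3 and 100, 77 and 106 in RM1 to RM3, where its FPKM was 4.63, 2.77 and 4.13. It was the least induced in amount of the rat ELR members, and RM2 was its lowest IL-1β library. From 2 counts in RC to 283 in RM the ratio was 138.4, with a counting interval of 38 to 1150. Rat Cxcl2 was tested only through its RM libraries, so a call could only be a rise. Mouse Cxcl2 (ENSMUSG00000058427, chr5:90903871-90905938, + strand) had FPKM of 0, 0 and 0.0269 in MC1 to MC3 and 95.3, 96.6 and 91.5 in MM1 to MM3. A single count in MC3 made up the whole control group against 11168 counts in MM, a ratio of 12320 with an interval of 2210 to 487000. Mouse Cxcl2 was tested only through its MM libraries, so a call could only be a rise. Without MC3 its fitted log2 fold change moved from 13.1 to 14.9. These ratios, and the intervals around them, are scaled by library size with edgeR's TMM factors and cover counting error only. The change of Cxcl2 was larger in mouse by 6.31 (SE 2.01, edgeR, BH-adjusted P = 0.0113), and with so few control counts this call was lost without RC1 (6.04, BH-adjusted P = 0.0575) and without RC3 (5.93, BH-adjusted P = 0.0775), while without MC3 the difference was 8.26.

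For rat Cxcl3 (ENSRNOG00000028043) the FPKM was 0.192, 0.147 and 0.259 in RC1 to RC3 and 102.1, 79 and 91 in RM1 to RM3. All RM libraries were high and all RC libraries were under 1 FPKM. From 20 counts to 9215 the ratio was 450.6, with an interval of 292 to 738 (log2 fold change 8.8). Rat Cxcl3 was tested only through its RM libraries, so a call could only be a rise. In mouse (ENSMUSG00000029379, chr5:90786103-90789600, + strand) Cxcl3 had 0.0668, 0.153 and 0.0478 FPKM in MC1 to MC3 and 110.3, 110.4 and 106.7 in MM1 to MM3. The groups did not overlap, and the MM libraries lay close together. From 16 counts to 21816 the ratio was 1504, with an interval of 926 to 2630 (log2 fold change 10.5). Mouse Cxcl3 was tested only through its MM libraries, so a call could only be a rise. Without MC2, which stood highest of the controls, its log2 fold change was 11.1. The mouse change was the larger by 1.72 (SE 0.527, edgeR, BH-adjusted P = 0.00886), and by 2.33 without MC2, but by 0.41 with log2(FPKM + 1) in limma.

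Rat Cxcl6 and mouse Cxcl5, counterparts that act on Cxcr2 and are known as products of stromal and epithelial cells, were both raised steeply. Rat Cxcl6 (ENSRNOG00000002843) had FPKM of 0.0247, 0.0795 and 0.0583 in RC1 to RC3 and 42.8, 40.8 and 45.2 in RM1 to RM3. The RC group held 6 counts and the RM group 4875, a ratio of 794.6 with an interval of 365 to 2170 (log2 fold change 9.55). Rat Cxcl6 was tested only through its RM libraries, so a call could only be a rise. Mouse Cxcl5 (ENSMUSG00000029371, chr5:90759360-90761624, + strand) was already present in controls, at 11.4, 10.9 and 10.3 FPKM in MC1 to MC3, and reached 3868, 3798 and 3589 in MM1 to MM3. In MM it ranked 5 by mean FPKM among all mouse genes, and in MC it was the most abundant ELR member. Its log2 fold change was 8.71 (SE 0.0388, edgeR, BH-adjusted P = 1.11e-85), from 1047 counts to 399794. For the joined pair the difference in change, mouse less rat, was −0.82 (SE 0.371, edgeR, BH-adjusted P = 0.119) and did not pass, so the fold changes of the counterparts cannot be told apart. Scaling by library size alone gave −1.12 and passed (BH-adjusted P = 0.0271), and limma on log2(FPKM + 1) gave 2.93 and passed the other way, where the 1 added lies above the mean RC level of 0.0542 FPKM.

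**Figure D2:**
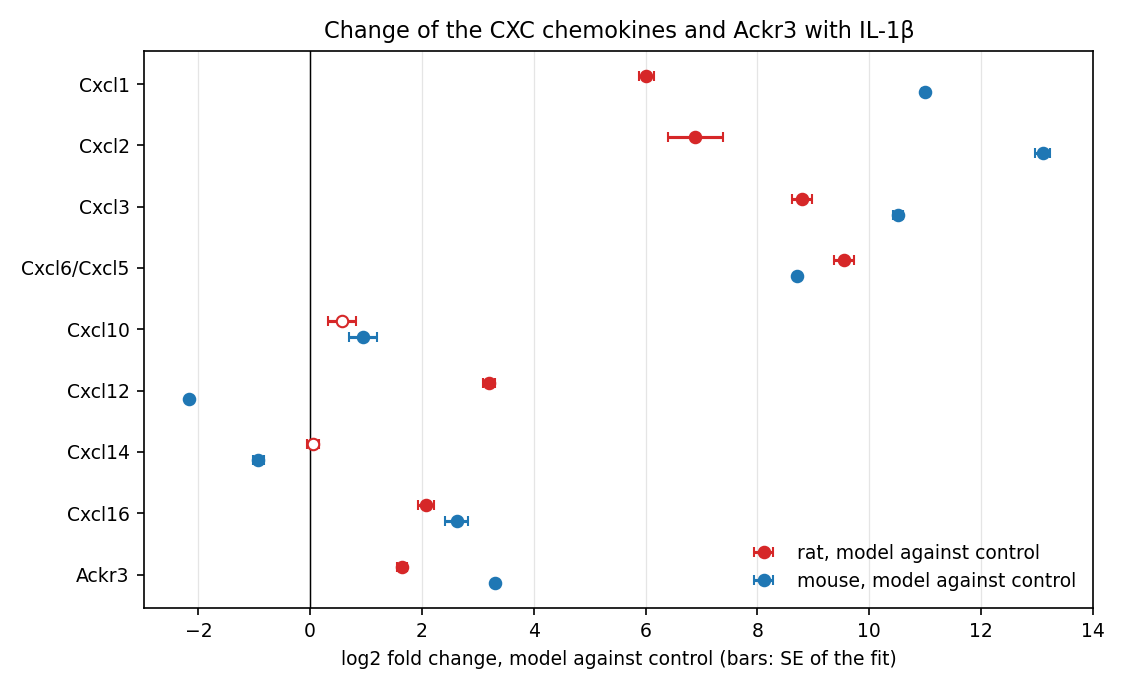
Log2 fold change of IL-1β over control for each CXC chemokine tested, which leaves out Cxcl9, and for the receptor Ackr3. Rat is in red and mouse in blue, with bars for 1 SE and open symbols where the BH-adjusted P was not below 0.05. Cxcl12 stood at 3.19 in rat and −2.16 in mouse, and for members with few control counts (rat Cxcl2, Cxcl3 and Cxcl6, mouse Cxcl1, Cxcl2 and Cxcl3) the bars understate the error.

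The plot of log2 fold changes sets the members side by side and shows the ELR members in a group of their own at the top in either species. Genes whose pair of changes in rat and mouse lay nearest that of Cxcl1 were sought over 10905 genes tested in both. They were Ccl2, a monocyte chemokine (5.36 in rat, 9.76 in mouse, distance 1.4), Lcn2, an iron-carrier binding protein of the acute phase (8.07 and 11.16, distance 2.06), and Csf3, the growth factor of neutrophils, with 3 counts in MC (4.66 and 9.37, distance 2.12).

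The rat promoters of the ELR members that moved together are shown with the NF-kB match each holds, beside that of Cxcl12, which rose without such a match in the same window. Promoters were matched by symbol in RefSeq (GRCr8) for 8 of the 9 rat members, Cxcl3 being the exception, and each line gives the 250 bases ahead of the annotated start, in the direction of the gene. Capitals mark matches to the NF-kB consensus, with overlapping matches joined.
Cxcl1: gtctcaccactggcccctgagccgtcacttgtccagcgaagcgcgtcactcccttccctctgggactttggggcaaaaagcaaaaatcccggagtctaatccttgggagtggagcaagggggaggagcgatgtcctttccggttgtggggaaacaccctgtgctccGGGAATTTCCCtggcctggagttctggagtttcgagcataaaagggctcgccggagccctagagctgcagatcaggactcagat
Cxcl2: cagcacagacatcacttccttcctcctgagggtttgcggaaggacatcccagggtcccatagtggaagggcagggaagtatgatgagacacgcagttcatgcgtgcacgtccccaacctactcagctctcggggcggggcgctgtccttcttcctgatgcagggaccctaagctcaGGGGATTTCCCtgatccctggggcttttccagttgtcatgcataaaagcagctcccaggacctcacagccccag
Cxcl6: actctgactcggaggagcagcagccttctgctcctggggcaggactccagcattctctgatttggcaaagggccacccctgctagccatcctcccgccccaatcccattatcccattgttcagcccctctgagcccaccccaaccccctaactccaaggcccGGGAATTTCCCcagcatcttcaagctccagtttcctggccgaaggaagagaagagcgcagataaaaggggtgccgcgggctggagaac
Cxcl12: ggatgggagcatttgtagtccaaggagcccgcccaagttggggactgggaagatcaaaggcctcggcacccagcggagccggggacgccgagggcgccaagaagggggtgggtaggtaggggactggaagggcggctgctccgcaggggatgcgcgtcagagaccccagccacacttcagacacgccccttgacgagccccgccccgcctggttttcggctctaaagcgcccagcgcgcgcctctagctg
These stretches lie at chr14:17479322-17479571 on the − strand for Cxcl1, chr14:17467256-17467505 on the − strand for Cxcl2, chr14:17596418-17596667 on the − strand for Cxcl6 and chr4:152060531-152060780 on the + strand for Cxcl12. The match lay 84 to 74 bases ahead of the start in Cxcl1, 74 to 64 in Cxcl2 and 88 to 78 in Cxcl6. Cxcl10 held a pair of NF-kB matches, 187 to 178 and 128 to 118 bases ahead of its start, and an AP-1 match at 96 to 90, and Cxcl14 held an AP-1 match at 99 to 93. Cxcl9, Cxcl12 and Cxcl16 held no NF-kB or AP-1 match, and none of the 8 held a STAT match. Searched on both strands for the NF-kB consensus, AP-1 (TGANTCA) and STAT (TTC and GAA parted by NNN), 6.33%, 6.34% and 7.67% of all 33469 promoters held a match. A match describes the letters of the window, and nothing was measured here on the binding of these factors.

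The mouse ELR genes lie together on chromosome 5, Cxcl5 to Cxcl2 over 147 kb, and Cxcl9 and Cxcl10 lie on the same chromosome, 27.5 kb from end to end.

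Cxcl9 and Cxcl10, ligands of Cxcr3 that draw T cells and natural killer cells, responded little or could not be measured. Rat Cxcl9 (ENSRNOG00000022242) had 0 counts in all 6 libraries, where 3 counts, the floor used here, would be 0.116 to 0.149 CPM (counts scaled to the library). Mouse Cxcl9 (ENSMUSG00000029417) had 9 counts in MC and 7 in MM, a ratio of 0.858 with an interval of 0.272 to 2.59, so a change within those bounds was not detectable at this depth. Rat Cxcl10 (ENSRNOG00000022256) had FPKM of 1.67, 1.75 and 1.13 in RC1 to RC3 and 2.8, 1.91 and 2.17 in RM1 to RM3. Each RM library stood above each RC library by a small margin, RM2 lying just over RC2. Its log2 fold change of 0.57 (SE 0.251) did not pass (edgeR, BH-adjusted P = 0.104). Mouse Cxcl10 (ENSMUSG00000034855, chr5:92346638-92348889, − strand) had 0.597, 1.77 and 0.519 FPKM in MC1 to MC3 and 1.42, 1.27 and 1.88 in MM1 to MM3. The mouse groups overlapped, MC2 alone among the controls lying above MM1 and MM2. The log2 fold change of 0.95 passed in edgeR (SE 0.254, BH-adjusted P = 0.00071) and was 1.71 without MC2, but it did not pass in DESeq2 (BH-adjusted P = 0.133) or in limma on log2(FPKM + 1) or log2(FPKM + 0.1) (BH-adjusted P = 0.109 and 0.0939). The change did not pass as different between species (0.39, SE 0.486, edgeR, BH-adjusted P = 0.502), though without MC2 the difference was 1.16 (BH-adjusted P = 0.0144).

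Cxcl12, which holds stem cells and leukocytes in place through Cxcr4 and is scavenged by Ackr3, was the member whose direction parted the species. Rat controls held little of it and gained it with IL-1β, and mouse controls held it as their most abundant CXC chemokine and lost most of it. In rat (ENSRNOG00000013589) the FPKM was 0.578, 0.54 and 0.568 in RC1 to RC3 and 5.53, 4.83 and 5.27 in RM1 to RM3. The libraries of each group lay close together and the groups were far apart. In log2 terms Cxcl12 rose by 3.19 (SE 0.11, edgeR, BH-adjusted P = 1.45e-08), from 211 counts to 1968. In mouse (ENSMUSG00000061353, chr6:117168535-117181367, + strand) the FPKM was 63.65, 60.56 and 63 in MC1 to MC3 and 11.4, 11.5 and 11.6 in MM1 to MM3. Each MM library was below each MC library, and even so the MM level exceeded 10 FPKM. Here the log2 fold change was −2.16 (SE 0.0337, edgeR, BH-adjusted P = 5.91e-55), from 26496 counts to 5366. Mouse less rat, the changes differed by −5.35 (SE 0.0937, edgeR, BH-adjusted P = 1.94e-16). Among the genes with the nearest pair of changes were Vat1l (2.75 and −1.83, distance 0.55) and Scin, an actin-severing protein (2.13 and −1.92, distance 1.1), each up in rat and down in mouse.

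Cxcl14, a conserved chemokine made by resting epithelium and stroma, behaved unlike the ELR members in either species. In rat (ENSRNOG00000011984) the FPKM was 8.35, 8.98 and 8.08 in RC1 to RC3 and 8.03, 8.74 and 9.69 in RM1 to RM3. The groups overlapped, with RM1 below all RC libraries and RM3 above them. The log2 fold change of 0.04 (SE 0.108) did not pass (edgeR, BH-adjusted P = 0.786). In mouse (ENSMUSG00000021508, chr13:56288643-56296551, − strand) the FPKM was 12.3, 11.6 and 11.2 in MC1 to MC3 and 4.89, 5.23 and 5.04 in MM1 to MM3. Each MM library lay below each MC library. Mouse Cxcl14 had a log2 fold change of −0.93 (SE 0.0946, edgeR, BH-adjusted P = 1.56e-13), and it differed from that of rat by −0.97 (SE 0.133, edgeR, BH-adjusted P = 6.72e-06).

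Cxcl16, a chemokine anchored in the cell membrane that also takes up oxidised lipoprotein and is released by Adam10 and Adam17, rose in both species. In rat (ENSRNOG00000026647) the FPKM was 4.08, 3.94 and 5.89 in RC1 to RC3 and 21.6, 19.4 and 18.1 in RM1 to RM3. RC3 was the highest control and still far below the lowest RM library. The log2 fold change was 2.07 (SE 0.147, edgeR, BH-adjusted P = 3.08e-06). In mouse (ENSMUSG00000018920, chr11:70453983-70459984, − strand) the FPKM was 0.696, 0.275 and 0.369 in MC1 to MC3 and 2.46, 2.07 and 2.31 in MM1 to MM3. The groups did not overlap, and counts were few, 70 over MC and 393 over MM. Mouse Cxcl16 rose by 2.62 on the log2 scale (SE 0.207, edgeR, BH-adjusted P = 6.35e-18). Of 50-base windows in its mouse transcripts 16.9% occurred in Zmynd15, which overlaps it on the other strand and had 11 counts in MC and 31 in MM. The difference between species, 0.55, did not pass (SE 0.309, edgeR, BH-adjusted P = 0.132) but passed without RC1 (0.65, BH-adjusted P = 0.048) and without MC1 (1.01, BH-adjusted P = 0.0126), and it took the other sign with log2(FPKM + 1) in limma (−0.70, past the threshold). Among its nearest neighbours in the pair of changes were Lum, a collagen-binding proteoglycan (2.01 and 2.61, distance 0.061), and Ubash3b, a tyrosine phosphatase (2.03 and 2.85, distance 0.229).

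Set in order by FPKM, the members changed places with IL-1β. In RC, Cxcl1 and Cxcl14 led with overlapping libraries, followed by Cxcl16, Cxcl10, Cxcl12 and Cxcl3, and at the bottom Cxcl2 overlapped both Cxcl6 and Cxcl9. In RM the order was Cxcl1, Cxcl3, Cxcl6, Cxcl16, Cxcl14, Cxcl12, then Cxcl2 and Cxcl10 with overlapping libraries, then Cxcl9. In MC, Cxcl12 led, Cxcl14 and Cxcl5 overlapped after it, Cxcl10 overlapped both Cxcl1 and Cxcl16, and Cxcl3, Cxcl9 and Cxcl2 followed, Cxcl3 overlapping Cxcl9. In MM the order was Cxcl5, Cxcl1, Cxcl3, Cxcl2, Cxcl12, Cxcl14, Cxcl16, Cxcl10 and Cxcl9, with no overlap between neighbours.

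Summed over the members, the FPKM was 22.4, 23.7 and 26.1 in RC1 to RC3 and 821.9, 661.7 and 724.6 in RM1 to RM3. In mouse the sum was 89.8, 86.1 and 86.3 in MC1 to MC3 and 5749, 5614 and 5365 in MM1 to MM3. CXC chemokines thus went from 0.0345 to 0.0359% of all FPKM in MC to 1.94 to 2.07% in MM, and in rat from 0.00483 to 0.00537% in RC to 0.14 to 0.173% in RM. ELR members made up 34.6, 35.9 and 40% of the summed FPKM in RC1 to RC3 and 95.4, 94.7 and 95.1% in RM1 to RM3. In mouse their share was 13.9, 13.8 and 13% in MC1 to MC3 and 99.6% in each MM library. Cxcl12 alone was 70.9, 70.3 and 73% of the sum in MC1 to MC3 and 0.199, 0.204 and 0.216% in MM1 to MM3. With IL-1β the lead was with Cxcl1 in rat, at 77.2, 76.2 and 75.8% of the sum in RM1 to RM3, and with Cxcl5 in mouse, at 67.3, 67.7 and 66.9% in MM1 to MM3. In mouse these shares, and the order above, rest on FPKM that is lowered for Cxcl1, Cxcl2, Cxcl3 and Cxcl10 by the gene length used.

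**Figure D3:**
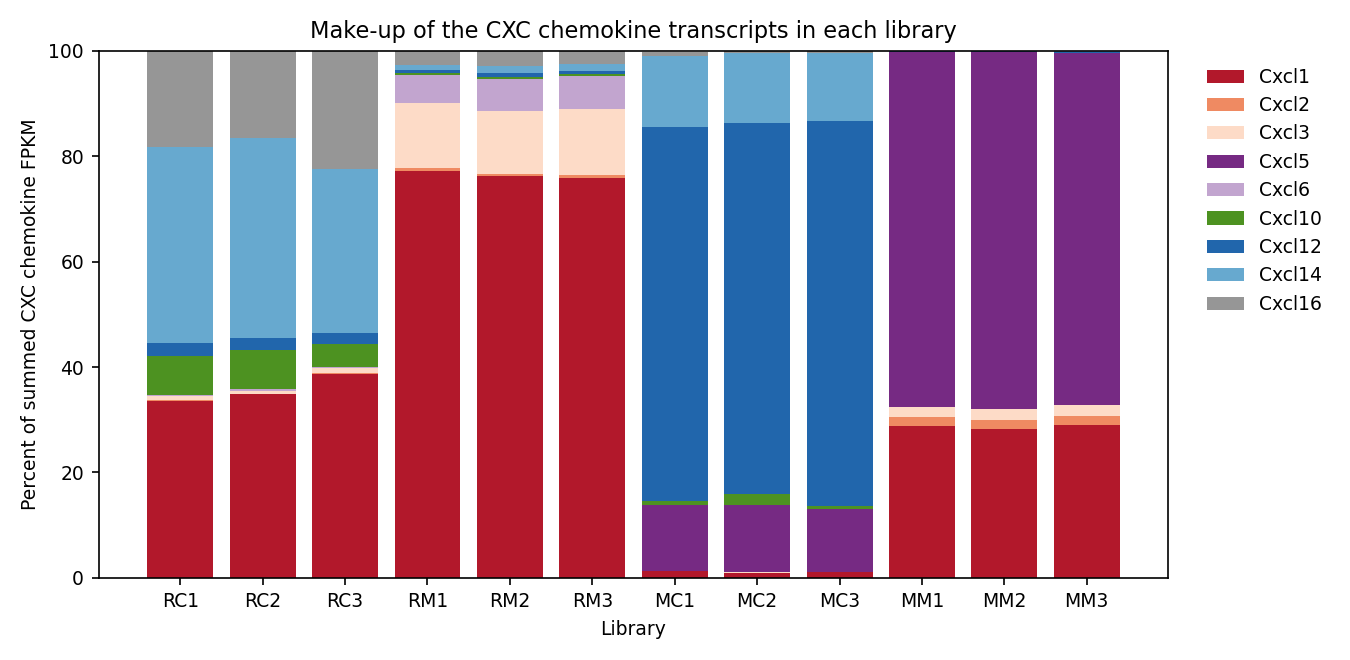
Percent of the summed FPKM of the CXC chemokines held by each member, 1 stacked bar for each library, rat and mouse side by side. Cxcl12 held 70.3 to 73% of the sum in MC, and in MM Cxcl5 held 66.9 to 67.7% and Cxcl1 28.3 to 29%. The gene length used lowers the FPKM of mouse Cxcl1, Cxcl2, Cxcl3 and Cxcl10.

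The stacked bars show the lead pass from Cxcl12 to Cxcl5 in mouse, and in rat Cxcl1 gain from a share of 33.5 to 38.6% in RC. Mouse FPKM ratios of MM to MC are lower than the fold changes given above, since TMM factors were 1.099 to 1.104 in MC and 0.905 to 0.9105 in MM, against 0.9941 to 1.008 in rat. Scaling by library size alone shifted the median over the mouse genes tested from −0.02 to −0.3 (log2), and each mouse change is to be read against that shift.

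Beyond the listed members, other CXC ligands were scarce. Rat Cxcl11, a further ligand of Cxcr3, went from 5, 3 and 1 counts in RC1 to RC3 to 11, 19 and 30 in RM1 to RM3 (log2 fold change 2.65, SE 0.537) and stayed under 1 FPKM in all libraries. It was tested only through its RM libraries, so a call could only be a rise. Rat Cxcl13, which draws B cells, had 7 counts in RC and 41 in RM, a ratio of 5.73 with an interval of 2.54 to 15.1, and was not tested. Rat Cxcl17 had 10 counts in RC and 0 in RM and was not tested. Rat Pf4, a platelet chemokine, did not pass (log2 fold change 0.86, edgeR, BH-adjusted P = 0.156), and rat Ppbp had 0 counts in RC and 1 in RM. In mouse, Ppbp, an ELR ligand known from platelets whose gene lies in the same cluster, went from a mean of 0.0877 FPKM in MC to 2.96 in MM, or from 5 counts to 182, a ratio of 40.2 with an interval of 16.9 to 125. It was tested only through its MM libraries, so a call could only be a rise, and without MC3 its log2 fold change moved from 5.22 to 5.86. Mouse Pf4 had 3 counts in MC and 14 in MM (ratio 5.15, interval 1.44 to 27.9), Cxcl15 had 7 in either group and Cxcl17 had 1 and 6, and these were not tested.

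Of the receptors, only the scavenger Ackr3, which binds Cxcl12 and takes it up, was well measured, and it rose in both species. Its FPKM was 12, 13.9 and 14.2 in RC1 to RC3 and 39.8, 43.3 and 43.8 in RM1 to RM3. In mouse it was 8.29, 7.43 and 7.78 in MC1 to MC3 and 63.5, 63.5 and 65.2 in MM1 to MM3. The groups did not overlap in either species, so Ackr3 rose where its ligand Cxcl12 rose and also where it fell. Its log2 fold change was 1.65 in rat (SE 0.0886, edgeR, BH-adjusted P = 4.55e-07) and 3.31 in mouse (SE 0.0454, edgeR, BH-adjusted P = 4.1e-58), and the mouse change was the larger by 1.66 (SE 0.0984, edgeR, BH-adjusted P = 1.92e-10). Cxcr4, the signalling receptor of Cxcl12, had 11 counts in RC and 9 in RM and was not tested in rat. In mouse it went from 51 counts to 16 (log2 fold change −1.51, edgeR, BH-adjusted P = 0.003), a call lost without MC1 (−0.95, BH-adjusted P = 0.12). Mouse Cxcr1 had 57 counts in MC and 5 in MM (log2 fold change −3.28, SE 0.578), with −2.68 without MM1 and −4.85 without MM3, and was under 1 FPKM. Mouse Cxcr4 and Cxcr1 were tested only through their MC libraries, so any call could only be a fall. Cxcr2, the receptor of the ELR ligands on neutrophils, had 0 counts in MC and 1 in MM. Rat Cxcr1 had 0 counts, Cxcr3 had 21 in RC and 35 in RM and Cxcr5 had 21 and 22, and mouse Cxcr5, Cxcr6 and Ackr1 had at most 20 counts in a group, and none of these was tested.

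Genes that process chemokines or hold them at the cell surface moved in mixed directions. Of 8 tested in rat 3 rose, 3 fell and 2 did not pass (median log2 fold change −0.03), beside 18.3% of all rat genes that rose, 16.8% that fell and a median of 0.005. Of 9 in mouse 6 rose, 2 fell and 1 did not pass (median 0.47), or 5, 3 and 1 by library size alone (0.19), beside 37.4% of all mouse genes that rose, 37.7% that fell and a median of −0.02. Of 8 differences between species 3 were higher in mouse, 3 lower and 2 did not pass (median 0.06), beside 31.4% of all genes compared that were higher, 32.3% that were lower and a median of −0.03. These were 3, 5 and 0 by library size alone (−0.24) and 3, 2 and 3 with RLE factors (0.07). The difference of Adam17 (−0.22) lost its call in 13 of 19 alternatives. Sdc4, a heparan sulfate proteoglycan that binds chemokines, rose from a mean of 71.7 FPKM to 137.3 in rat (edgeR, BH-adjusted P = 3.12e-06) and from 103.2 to 264.5 in mouse (edgeR, BH-adjusted P = 6.24e-52). Gpc1, a heparan sulfate proteoglycan anchored by lipid, fell in rat from 180.5 to 93.82 FPKM and rose in mouse from 62.5 to 126, a difference in log2 fold change of 2.25 (SE 0.0847, edgeR, BH-adjusted P = 5.66e-13). Sdc2, of the same family as Sdc4, fell in both, from 204.6 to 137 FPKM in rat (log2 fold change −0.59) and from 145.6 to 82.9 in mouse (−0.53). Hspg2, the matrix proteoglycan perlecan, went from 248.2 FPKM to 283.7 in mouse (log2 fold change 0.47, edgeR, BH-adjusted P = 1.81e-27). Adam17, a sheddase of Cxcl16, rose with a log2 fold change of 0.69 in rat (edgeR, BH-adjusted P = 0.000139) and 0.47 in mouse (edgeR, BH-adjusted P = 4.83e-17). Dpp4, a peptidase that inactivates Cxcl12 and Cxcl10, fell in mouse from 2.69 to 0.312 FPKM (log2 fold change −2.82, edgeR, BH-adjusted P = 6.93e-27), while in rat it was at 0.268 and 0.225 and did not pass, and the difference was −2.54 (edgeR, BH-adjusted P = 4.13e-06).

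CXC chemokine RNAs of the ELR group are short-lived through AU-rich elements, and of the 9 genes listed for chemokine RNA stability 4 rose in rat, 0 fell and 5 did not pass (median log2 fold change 0.33), beside 18.3% and 16.8% of all rat genes. In mouse 6 rose, 2 fell and 1 did not pass (median 0.17), beside 37.4% and 37.7% of all mouse genes, and the median became −0.11 by library size alone, where 4 rose and 4 fell. Of the 9 differences between species 4 were higher in mouse, 2 lower and 3 did not pass (median 0.26), or 3, 4 and 2 by library size alone (−0.04). Of all genes compared 31.4% were higher and 32.3% lower (median −0.03). Zc3h12a, the RNase Regnase-1 that destroys inflammatory RNAs, rose from 4.05 to 48.1 FPKM in rat (log2 fold change 3.55, edgeR, BH-adjusted P = 1.23e-09) and from 3.66 to 74.3 in mouse (log2 fold change 4.62, edgeR, BH-adjusted P = 2.38e-62). Zfp36l1, which binds AU-rich elements and promotes decay, rose from 15.4 to 43.7 FPKM in rat (log2 fold change 1.49) and from 5.94 to 23.5 in mouse (2.26), the mouse change being the larger by 0.77 (edgeR, BH-adjusted P = 1.28e-05). Traf3ip2, the adaptor Act1 that is known to stabilise Cxcl1 RNA after IL-17, rose in mouse (log2 fold change 1.58, edgeR, BH-adjusted P = 1.17e-28) and had a value of 0.01 in rat that did not pass, and the difference was 1.57 (edgeR, BH-adjusted P = 2.6e-07). Hnrnpd, another binder of AU-rich elements, rose in rat (0.51) and fell in mouse (−0.36), a difference of −0.87 (edgeR, BH-adjusted P = 4.46e-08). Rc3h1, the RNA decay factor Roquin-1, rose in mouse (0.74, edgeR, BH-adjusted P = 3.14e-23) and in rat (0.33, edgeR, BH-adjusted P = 0.0126), where the call was lost without RC3 (0.28, BH-adjusted P = 0.0591) and without RM2 (0.29, BH-adjusted P = 0.0649).

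The way from the IL-1 receptor to NF-kB is the route known for the induction of ELR chemokines. The list for it also holds inhibitors and targets of NF-kB. Its genes rose more often than they fell in both species, and most had the higher change in mouse. Of 27 genes tested in rat 14 rose, 0 fell and 13 did not pass (median log2 fold change 0.42), beside 18.3% of all rat genes that rose and 16.8% that fell. In rat Il1rap, Irak3, Chuk, Nfkb1, Nfkb2, Rel, Relb, Nfkbia, Nfkbie, Nfkbiz, Bcl3, Tnfaip3, Cebpb and Cebpd rose. Rat Il1r1, Myd88, Irak1, Irak2, Irak4, Traf6, Tab1, Tab2, Map3k7, Ikbkb, Ikbkg, Rela and Nfkbib did not pass. Of 28 in mouse 22 rose, 3 fell and 3 did not pass (median 1.17), or 20, 7 and 1 by library size alone (median 0.89), beside 37.4% of all mouse genes that rose and 37.7% that fell. Of 27 compared, 18 had the higher change in mouse, 1 the lower and 8 did not pass (median difference 0.88), or 15, 4 and 8 by library size alone (0.59), beside 31.4% of all genes compared that were higher, 32.3% that were lower and a median of −0.03. Nfkbiz, the cofactor that NF-kB needs at a set of late inflammatory genes, rose from 0.738 to 13.04 FPKM in rat and from 3 to 136.3 in mouse, which as log2 fold changes is 4.13 (edgeR, BH-adjusted P = 1.81e-09) and 5.79 (edgeR, BH-adjusted P = 3.97e-73). Nfkbia, the inhibitor that restrains NF-kB and is itself a target, stood at 2.09 on the log2 scale in rat and at 3.15 in mouse, and Nfkb1, which encodes the p50 subunit, at 1.2 and 1.9. Cebpd, a transcription factor of the acute phase, had 2.13 in rat and 3.75 in mouse. Il1rn, the natural antagonist of IL-1, fell in mouse from 28.6 to 2.79 FPKM (log2 fold change −3.08, edgeR, BH-adjusted P = 5.75e-52) and had 14 counts in RC and 13 in RM.

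Of the interferon list, whose genes share regulators with Cxcl9 and Cxcl10, most fell in mouse. Of 14 genes tested in mouse 1 rose, 12 fell and 1 did not pass (median log2 fold change −1.93), or 1, 13 and 0 by library size alone (−2.21), beside 37.4% of all mouse genes that rose and 37.7% that fell. Oas1a, with 146 counts in MC and 30 in MM, and Mx2, with 209 and 33, could only be called as falls. Of 11 in rat 1 rose (Cxcl11), 1 fell and 9 did not pass (median −0.06), beside 18.3% and 16.8% of all rat genes. Of 9 compared, 8 had the lower change in mouse and 1 the higher (median difference −1.61), beside 32.3% and 31.4% of all genes compared. The mouse controls were uneven for some of these genes, with an SD of 8.11 FPKM on a mean of 23.7 for Ifit3 and 9.18 on 22.1 for Ifit1 (n = 3). Ifit3 and Ifit1, antiviral effectors, fell in mouse from 23.7 to 0.573 FPKM (log2 fold change −5.08, SE 0.186, edgeR, BH-adjusted P = 2.76e-34) and from 22.1 to 1.38 FPKM (−3.71, edgeR, BH-adjusted P = 6.31e-30), and in rat had at most 14 counts in a group and were not tested. Stat2, which carries the interferon signal to the nucleus, fell in mouse from 14.6 to 3.46 FPKM (−1.79, edgeR, BH-adjusted P = 8.95e-33). Irf7, a master regulator of type I interferon, fell in both species, with −0.62 in rat (edgeR, BH-adjusted P = 0.00554) and −1.77 in mouse (edgeR, BH-adjusted P = 3.15e-20). Irf9, the DNA-binding partner of Stat2, had −0.34 in rat, which did not pass (edgeR, BH-adjusted P = 0.0563) but did in 4 of 13 alternatives, and −1.17 in mouse. Gbp2, a guanylate-binding protein induced by interferon γ, rose in mouse from 3.6 to 14.9 FPKM (2.33, edgeR, BH-adjusted P = 6.17e-33). Cxcl10, at 0.95 in mouse, went against the median of these genes, but its groups overlapped and it did not pass in DESeq2 or limma. Cxcl9 had too few counts to be placed.

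**Figure D4:**
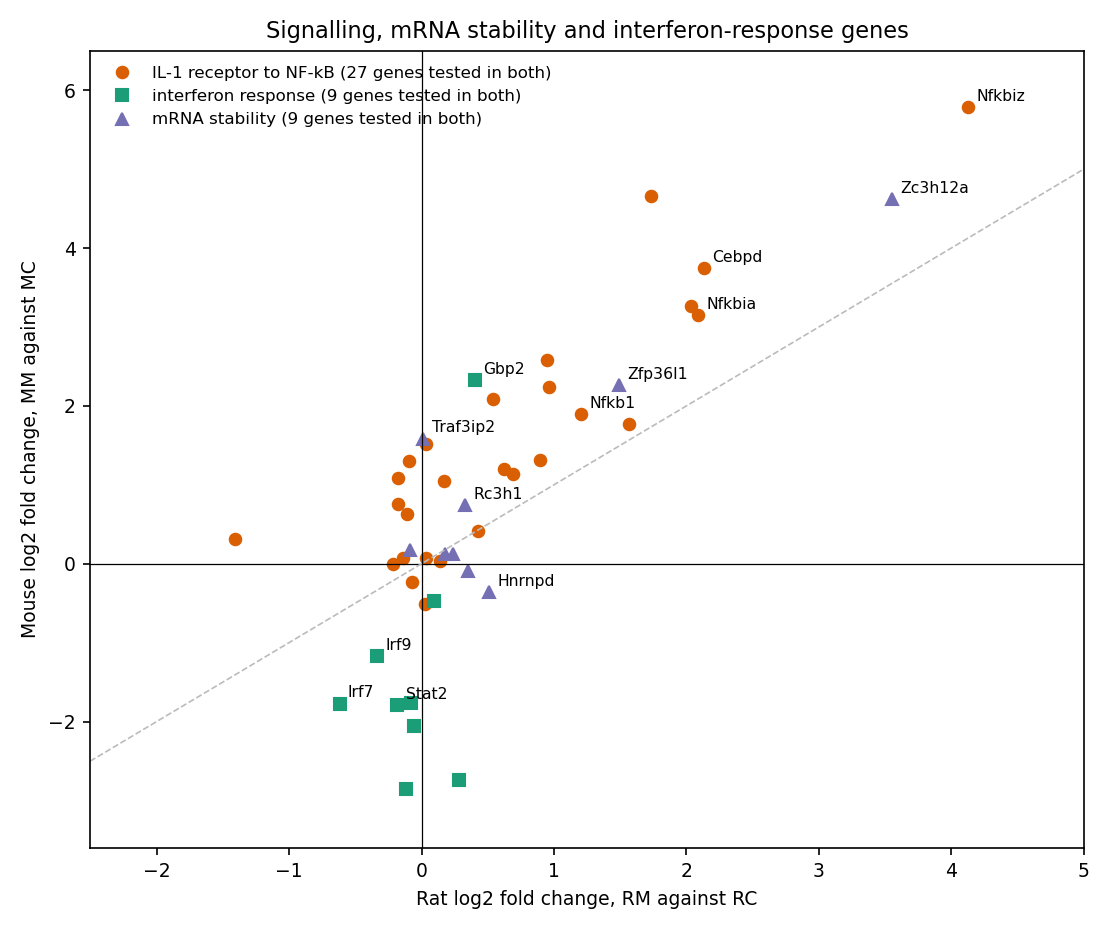
Log2 fold change in mouse against that in rat for the genes of the NF-kB list (27), the interferon list (9) and the RNA stability list (9) tested in both species, with a dashed line where the changes are equal. Nfkbiz stood at 4.13 in rat and 5.79 in mouse, and the medians of the interferon list were −0.06 over the 11 genes tested in rat and −1.93 over the 14 tested in mouse.

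The cultures were checked against cell-type markers, since macrophages, endothelium and neutrophils also make CXC chemokines. All 12 chondrocyte markers were measured, and their summed FPKM was 4519, 5227 and 4619 in RC1 to RC3 and 1621, 1661 and 1659 in RM1 to RM3. In mouse it was 2307, 2272 and 2324 in MC1 to MC3 and 181.8, 186.5 and 196 in MM1 to MM3, so all libraries carried RNA of these markers, and their sum was lower with IL-1β. All 12 fell in both species, also by library size alone, beside 16.8% of all rat genes and 37.7% of all mouse genes, though mouse Matn3, Ucma and Snorc, with 28, 19 and 15 counts in MM, were tested only through MC and could only be called as falls. In both species Col2a1, the cartilage collagen, was the most abundant (a mean of 2838 FPKM in RC, 943.5 in RM, 1347 in MC and 93.65 in MM). Fibroblast and synovial markers went from 1802, 1917 and 1820 in RC1 to RC3 to 2234, 2287 and 2219 in RM1 to RM3, with Col3a1 leading in RC and Thy1 in RM, and 3 rose, 2 fell and 4 did not pass, beside 18.3% and 16.8% of all rat genes. Prg4 rose from 8.49 to 475.8 FPKM, Lum from 138.4 to 565.5 and Dcn from 5.91 to 28.9. Col3a1 fell from 916.7 to 469.3 and Pi16 from 2.62 to 1.68. In mouse they went from 454.4, 454.9 and 447.2 in MC1 to MC3 to 1233, 1216 and 1214 in MM1 to MM3, with Col3a1 leading in MC and Dcn in MM, and 6 rose and 2 fell, or 4 rose, 3 fell and 1 did not pass by library size alone, beside 37.4% and 37.7% of all mouse genes, and Clic5, with 24 counts in MC and 55 in MM, could only be called as a rise. Their part, and that of the chondrocyte markers, in the chemokine changes was not tested.

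Macrophage markers summed to 20.9, 25.2 and 22.7 FPKM in RC1 to RC3 and 38.3, 33.3 and 36 in RM1 to RM3, and to 8.52, 7.87 and 8.87 in MC1 to MC3 and 34.8, 37.4 and 35.6 in MM1 to MM3. Cd14, a coreceptor for endotoxin that stromal cells make too, was the most abundant in RC, RM and MM, at 22.7 FPKM in RM and 24.1 in MM, and Cd68 in MC. Of those tested, 3 rose, 2 fell and 2 did not pass in rat, beside 18.3% and 16.8% of all rat genes, and 4 rose, 0 fell and 1 did not pass in mouse, or 3, 1 and 1 by library size alone, beside 37.4% and 37.7% of all mouse genes. The other macrophage markers of mouse were uneven. Ptprc had 3 counts in MC and 1 in MM, Adgre1 1 and 0, Tyrobp 3 and 2 and Fcer1g 20 and 4. C1qa had 0 and 2, C1qb 2 and 0 and Itgam 0 in all libraries. Cd68 (230 and 593), Lyz2 (108 and 198) and Csf1r (104 and 153) rose, and Mrc1 (154 and 108) did not pass. In rat Ptprc had 20 counts in RC and 16 in RM, Adgre1 18 and 23, C1qa 12 and 39 and C1qb 2 and 8. Tyrobp had 32 and 26 and Fcer1g 48 and 58 (1.1 and 1.38 FPKM). Cd68 (342 and 654) and Mrc1 (79 and 185) rose, while Lyz2 (288 and 159) and Csf1r (184 and 81) fell. Of 8 neutrophil markers 4 were measured in rat, where the sum was at most 0.175 FPKM, and 5 in mouse, where it was 0.163, 0.103 and 0.802 in MC1 to MC3 and 47, 47.1 and 43.6 in MM1 to MM3. Of the mouse sum in MM a mean of 45.8 FPKM was S100a8, a calcium-binding protein also made by chondrocytes, which went from 7 counts to 1820 and was tested only through its MM libraries, and Mpo, Elane, Ly6g and Cxcr2 had at most 5 counts in a group. Endothelial markers summed to at most 0.153 FPKM in rat and 0.793 in mouse, where of those tested 1 rose and 1 fell, beside 37.4% and 37.7% of all mouse genes. Of the lymphocyte markers, Cd79a was at 0.265 FPKM in MC and 0.353 in MM and Ms4a1 was at 0 in mouse, and none was tested in either species. Muscle markers summed to at most 4.03 FPKM in rat and 4.16 in mouse. In mouse Des (467 counts in MC and 45 in MM) and Acta1 (105 and 31) fell, beside 37.7% of all mouse genes. With so few counts in MM, these calls could only be falls. Cells other than chondrocytes as a source of the chemokine RNA were not tested.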

How the data were processed

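Gene counts and FPKM for 6 rat and 6 mouse libraries were used as deposited by the authors, the counts as raw counts per gene and the FPKM as fragments per kilobase of gene scaled to the counted fragments of the library. The submitters' processing notes name HISAT2, HTSeq 0.11.2, GRCm38 and Rnor_6.0, and how reads were counted on strands and at repeats is not given there. FPKM recomputed from the deposited counts and the length implied for each gene lay within 0.1% for all 64634 rat and 68133 mouse values checked. Counts were tested in R 4.3.3 with edgeR 4.0.16 (filterByExpr, TMM factors, quasi-likelihood F test), each species on its own, on 13303 rat and 14774 mouse genes. The difference between species, (MM − MC) − (RM − RC), was tested on 10913 genes, matched by symbol with rat Cxcl6 joined to mouse Cxcl5. P values were adjusted by Benjamini-Hochberg over all genes tested, with 0.05 as the threshold. SE is the log2 fold change over the square root of F, and count ratios carry exact 95% intervals. Genes were named by a rule: every member, every other CXC ligand and receptor, the 4 genes with the smallest P in rat and 4 in mouse of each further pathway list, and genes among the 3 nearest neighbours of Cxcl1, Cxcl12 and Cxcl16 by distance in the rat and mouse log2 fold changes. Single markers and other genes named beyond the rule were chosen after their values were seen. Members and lists were chosen with earlier results of these data known. Alternatives were DESeq2 1.42.0 with its own size factors within a species, RLE factors, library size alone, no filter on low counts, limma 3.58.1 on log2(FPKM + 1) and log2(FPKM + 0.1), other thresholds, a replicate block and leaving out each library. For the difference between species DESeq2 was given RLE factors set within each species. Sequences were read with Python 3.11.15 and Biopython 1.88 from GENCODE M21, where 28595 of 28603 mouse identifiers matched, and from RefSeq promoters. The code was tested on simulated data.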

Additional observations from a re-analysis of the deposited data

Results flagged for a closer look

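The response to IL-1β differed between mouse and rat for 5 of 8 members by the test of the difference in edgeR, a share near that of all genes tested in both (31.4% higher and 32.3% lower in mouse), each given as the mouse log2 fold change less the rat one. It was larger in mouse for Cxcl2 by 6.31, for Cxcl1 by 4.98 and for Cxcl3 by 1.72. Cxcl2 and Cxcl3 had few control counts in both species, the Cxcl2 call was lost without RC1 (BH-adjusted P = 0.0575) and without RC3 (BH-adjusted P = 0.0775), and the Cxcl3 difference was 0.41 with log2(FPKM + 1) in limma. It was lower in mouse for Cxcl12, at −5.35, where rat rose and mouse fell, and for Cxcl14, at −0.97, where mouse fell and rat did not pass. Species, strain and gene model differ together between the groups and cannot be told apart here.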

How the results depend on the processing

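All 6 rat members past the threshold kept it in every alternative run, and in mouse 8 passed, or 7 in DESeq2 and both limma fits, where Cxcl10 was lost, and 6 with a log2 fold change of at least 1, which Cxcl10 and Cxcl14 did not reach. Rat Cxcl2, Cxcl3 and Cxcl6 and mouse Cxcl2 and Cxcl3 had enough counts only through the IL-1β libraries. A call for them could only be a rise, so that they kept it is no support. Between species 4 to 7 members passed, 5 as reported, 7 with log2(FPKM + 1), 6 with library size alone, 4 with a difference of at least 1 and 4 to 6 without 1 library. The count of all rat genes changed was 4667, or 3303 to 6251 without 1 library, 1136 by the criteria for DEGs and 1048 with a log2 fold change of at least 1. The count of all mouse genes changed was 11085, or 10824 to 10937 without 1 library, 3781 by the criteria for DEGs and 4217 with at least 1. The count of all shared genes whose change differs between species was 6959, or 6591 to 7544 without 1 library, and 2775 with at least 1. Of mouse genes past the threshold 49.8% rose with TMM, 31.4% with library size alone and 31.5% with either limma fit, and of the differences 49.3% were larger in mouse with TMM, 28.8% with library size alone and 28.6% and 28.2% with limma. The difference took the other sign with log2(FPKM + 1) for Cxcl6 with Cxcl5 (2.93) and Cxcl16 (−0.70), for which the cause was not tested. For Sdc2 it went from 0.06 to −0.23 with library size alone, −0.23 with log2(FPKM + 1) and −0.24 with log2(FPKM + 0.1), where the median over all genes compared went from −0.03 to −0.33, −0.26 and −0.31. With libraries of the same number as a replicate block 6 rat and 8 mouse members and 5 differences passed, and this block rests on the number alone. Correlations between libraries of the same number did not exceed 0.1 (0.0849 at most), and those between different numbers reached 0.162. With 3 libraries in a group these correlations cannot show whether cultures of the same number were paired. Depth limits Cxcl9 in both species, the low controls of Cxcl2, Cxcl3 and rat Cxcl6, and most receptors.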
